A study of Mus musculus with 6 samples.

Results

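Kinesins are motor proteins that use ATP to walk along microtubules or to take them apart. The genes described here are the rows of a liver count table whose symbol starts with Kif and a digit. Of 38 such rows among 26608 gene symbols, 33 held 10 or more counts over the 6 mice and were kept. The kept rows just above that minimum were Kif5c and Kif26b with 45 counts each, and those just below were Kif27 with 9 and Kif17 with 7. Kif6 had 1 count, and Kif2b and the pseudogene row Kif4-ps had 0. By known function, 11 of the kept genes were taken as mitotic kinesins and 14 as transport kinesins, and the other 8 formed a mixed group.

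RNA was taken from the livers of 3 LiK and 3 LiKM mice, all 6 weeks old. The labels do not explain the genotype names. As is known of the study, though its labels do not say so, LiKM mice lack Mdm2 in hepatocytes, through a Cre recombinase under the albumin promoter, and LiK mice do not. LiK mice are not wild type, and no wild-type group was analysed, so the comparison shows what LiKM livers have beyond LiK livers. Mdm2 encodes the ubiquitin ligase that keeps the tumour suppressor p53 low.

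Kinesins of the dividing cell build the spindle, move chromosomes and cut the daughter cells apart, and their genes are switched on in G2 and M phase. Transport kinesins carry vesicles, organelles, RNA and ciliary cargo toward microtubule plus ends in cells that do not divide, hepatocytes among them. Mitotic kinesins are known to be scarce in the resting adult liver and to appear when liver cells proliferate.

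The libraries held 19909993 to 24874343 counts and 16847 to 17472 detected genes. Levels are given as CPM, read counts put on the same scale in each library with TMM factors, where 1 count was worth 0.0410 to 0.0503 CPM. A gene is said to have risen or fallen where edgeR's quasi-likelihood test gave a Benjamini-Hochberg adjusted p under 0.05 over all 13537 genes tested. Mdm2 stood at 28.7, 29.0 and 28.6 CPM in LiK and at 122, 125 and 60.5 CPM in LiKM, and its whole-gene count includes exons that a deletion may spare. In bulk liver, more dividing cells and more RNA per dividing cell cannot be told apart, and the counts do not show which cell types held a transcript.

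Mitotic kinesins were scarce in LiK livers and higher in LiKM livers. Of the 11 genes, 7 rose, namely Kif4, Kif15, Kif18b, Kif11, Kif20b, Kif20a and Kif22. None fell (0 in edgeR, also 0 at an unadjusted p under 0.05, in DESeq2 and in limma-voom), and 4 did not pass the test. Over all genes tested, 5.11% rose, and 9.90% did among the 2727 genes whose average log2 CPM lay within the range of the mitotic kinesins (−0.41 to 1.89). In all 11 genes the LiKM mice lay above the LiK mice without overlap, which held for 17.8% of all genes tested. Fitted log2 fold changes ran from 0.76 to 3.72 with a median of 2.08, against a median of −0.0034 over all genes. All 11 genes were tested, but 8 of them reached the expression filter in enough mice only through the LiKM group, so these counts describe the genes and are no separate support.

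Kif11 and Kif15 encode the motors that push the spindle poles apart. Kif11, the target of spindle poisons such as monastrol, measured 2.12, 1.01 and 2.18 CPM in LiK against 5.12, 4.58 and 6.75 CPM in LiKM. Its lowest LiKM mouse was above the highest LiK mouse. The rise was 3.08-fold (log2 fold change 1.62, SE 0.33, edgeR Benjamini-Hochberg adjusted p = 0.0374). Kif15, which can keep a spindle bipolar when Kif11 is blocked, measured 0.626, 0.453 and 0.451 CPM in LiK against 1.55, 1.91 and 2.17 CPM in LiKM. Its mice lay close together within each genotype, and its rise was 3.65-fold (1.87, SE 0.30, adjusted p = 0.0222 by edgeR).

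The chromosome-bound motors Kif4 and Kif22 both rose. Kif4, which shapes chromosomes and the central spindle, had nearly the same level in each LiK mouse (0.770, 0.755 and 0.780 CPM). In LiKM it stood at 4.23, 3.49 and 2.65 CPM. Its 4.47-fold rise (log2 fold change 2.16, SE 0.27) had the smallest adjusted p of the mitotic kinesins (0.0135 by edgeR). Kif22, which pushes chromosome arms toward the spindle equator, spread over 1.59, 0.302 and 0.862 CPM in LiK and stood at 4.51, 3.18 and 4.97 CPM in LiKM. The LiK 2 mouse held only 6 Kif22 counts, and the adjusted p of 0.0495 by edgeR lay just under the threshold (2.19, SE 0.50). In the mouse annotation GENCODE M21 exons of Kif4 share 832 of 5514 bases with Pdzd11 on the opposite strand. Since the strand setting of the counting is not given in the sources used here, reads of these 2 genes may be mixed. Pdzd11 stood at 18.6 ± 1.55 CPM in LiK against 18.8 ± 2.95 CPM in LiKM (SD, n = 3 each) and was not called.

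Among the motors that shorten microtubules, Kif18b stood out by size and Kif18a by the lack of a call. Kif18b, which trims astral microtubules, had 7, 0 and 7 counts in LiK against 61, 80 and 44 counts in LiKM. These counts correspond to 0.337, 0 and 0.287 CPM against 2.87, 3.63 and 2.12 CPM, where 3 counts in LiK 2 would be 0.151 CPM. The fitted rise was 13.2-fold (log2 fold change 3.72, SE 0.64, edgeR adjusted p = 0.0251), with a 95% confidence interval of 2.21 to 5.22 on the log2 scale. Kif2c, which depolymerises microtubules at kinetochores to correct wrong attachments, measured 0.578, 0.201 and 0.616 CPM in LiK against 1.41, 1.77 and 3.71 CPM in LiKM. It narrowly missed the threshold (2.27, SE 0.53, adjusted p = 0.0534 by edgeR). Kif18a, which dampens chromosome oscillations at the spindle equator, measured 0.144, 0.654 and 0.657 CPM in LiK against 0.752, 0.771 and 0.964 CPM in LiKM. Its groups were separated by a narrow gap and its value depended on LiK 1, which held 3 counts. Its log2 fold change was 0.76 (95% confidence interval −0.43 to 1.94, edgeR adjusted p = 0.426), and it was 0.33 without LiK 1.

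The motors of the central spindle and of cytokinesis followed the same direction with unequal certainty. Kif20a, which brings Aurora B and its partners to the spindle midzone, stood at 1.83, 1.96 and 1.85 CPM in LiK and at 4.37, 3.49 and 7.23 CPM in LiKM. Per kilobase of exon it had the highest LiK mean of the mitotic kinesins (0.433 CPM per kilobase), and its 2.67-fold rise was the smallest among those called (log2 fold change 1.42, SE 0.30, adjusted p = 0.0427 by edgeR). In GENCODE M21 its exons share 1271 of 4338 bases, 29.3%, with Cdc23 on the opposite strand. Cdc23 stood at 12.2 ± 1.18 CPM in LiK against 14.7 ± 2.01 CPM in LiKM (SD, n = 3 each) and was not called. How much of the Kif20a count came from Cdc23 was not tested. Kif20b, a related motor of late cytokinesis, measured 0.674, 0.453 and 1.31 CPM in LiK against 2.49, 4.45 and 3.62 CPM in LiKM. It rose 4.24-fold (2.08, SE 0.42, edgeR adjusted p = 0.0377), and its highest mouse was LiKM 2 and not LiKM 3. Kif23, the motor subunit of the centralspindlin complex, measured 1.11, 0.352 and 0.739 CPM in LiK against 1.93, 2.00 and 3.37 CPM in LiKM and was not called (1.72, SE 0.44, adjusted p = 0.0682 by edgeR). Kif14, which works with citron kinase at the midbody, had 2, 0 and 10 counts in LiK against 16, 22 and 40 counts in LiKM. It spread widely within both groups and was not called (2.73, SE 0.81, adjusted p = 0.101 by edgeR).

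**Figure D1:**
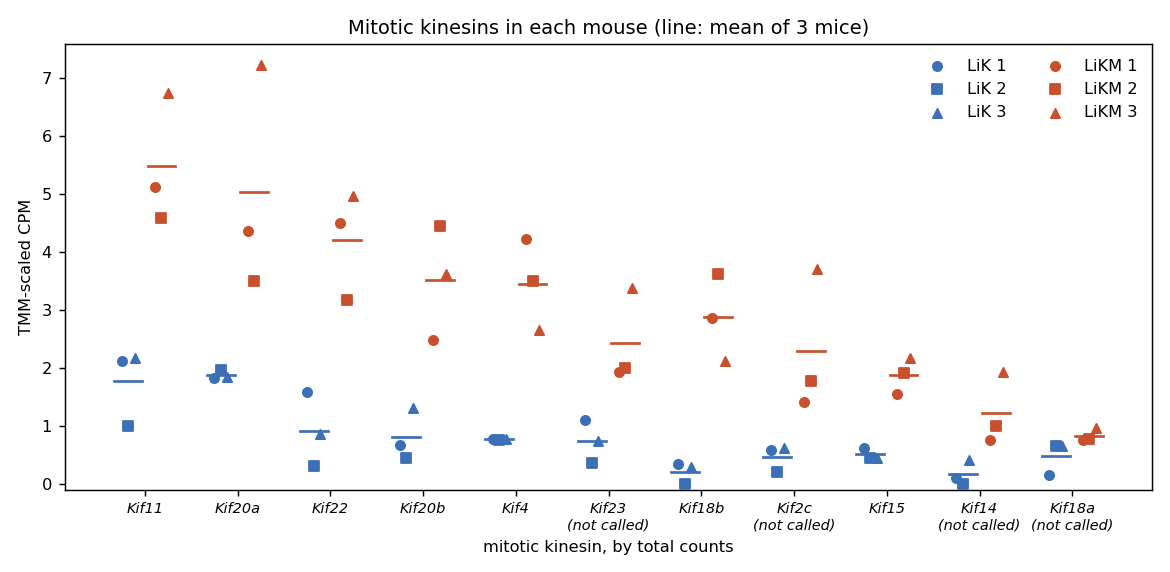
TMM-scaled CPM of the 11 mitotic kinesins (vertical axis, linear) in each mouse, with LiK in blue, LiKM in orange, a marker shape per mouse number and a line at the mean of 3 mice. In every gene the LiKM points lie above the LiK points, with the narrowest gap in Kif18a, and LiKM 3 (orange triangles) is the highest mouse in 8 of the 11 genes.

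Within each genotype the mice differed in a pattern shared by many of these genes. LiK 2 was the lowest LiK mouse in 8 of the 11 mitotic kinesins, and LiKM 3 was the highest LiKM mouse in 8. In Kif4 and Kif18b, in contrast, LiKM 3 was the lowest LiKM mouse. LiK 2 was also low in Mki67, the proliferation marker whose protein recruits Kif15 to chromosomes, with 2.16 CPM against 5.39 and 4.97 CPM in LiK 1 and LiK 3. Mki67 was highest in LiKM 3 at 29.8 CPM, after 17.4 CPM in LiKM 1 and 21.5 CPM in LiKM 2. LiKM 3 had the lowest Mdm2 level of the LiKM mice. Whether these differences between mice of a genotype come from the animals or the libraries was not tested.

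The number of mitotic kinesins past the threshold fell whichever mouse was left out. Under the other settings, 3.54% (no expression filter), 4.08% (limma-voom), 4.73% (DESeq2 size factors), 4.94% (replicate block), 5.21% (a filter of 1 CPM in 3 libraries), 5.25% (upper quartile factors), 7.68% (library totals) and 8.97% (DESeq2 test) of all genes were higher, where 6 to 10 mitotic kinesins were called. Without LiK 1, LiK 2 or LiKM 2, edgeR called 0 of the 11 genes, although 10 had an unadjusted p under 0.05 in each of those fits. It called Kif4 and Kif20b without LiK 3, Kif4 and Kif15 without LiKM 1, and Kif4, Kif15 and Kif18b without LiKM 3. In the same fits the share of all genes that rose was 0.188%, 0.130% and 0.321% without LiK 1, LiK 2 and LiKM 2, and 1.91%, 2.24% and 3.83% without LiK 3, LiKM 1 and LiKM 3. Each of the 11 log2 fold changes was positive in each fit. The adjusted p over the omissions ran from 0.0118 to 0.0666 for Kif4, from 0.0424 to 0.0889 for Kif15 and from 0.0313 to 0.0898 for Kif18b. It ran from 0.0412 to 0.134 for Kif20b, from 0.0653 to 0.103 for Kif11, from 0.0576 to 0.141 for Kif20a and from 0.0797 to 0.117 for Kif22.

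**Figure D2:**
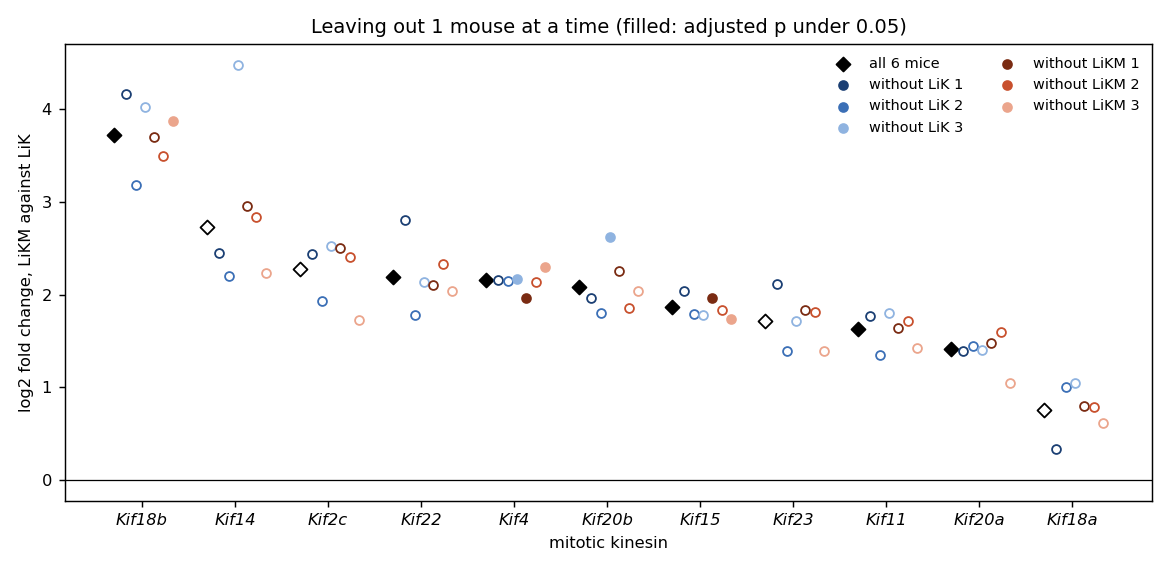
Log2 fold change of LiKM against LiK (vertical axis) for each mitotic kinesin, with all 6 mice (diamond) and with 1 mouse left out (circles), filled where the edgeR adjusted p was under 0.05. The values stay above 0, while filled circles are few and Kif4 has the most of them, 3 of 6.

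The promoter letters of the mitotic kinesins are shown because genes of G2 and M phase are known to carry the cell cycle genes homology region (CHR) near their start. The CHR is bound by the DREAM complex, which silences such genes in resting cells, and by the MuvB complex with B-MYB and FOXM1, which activates them. Promoter windows from RefSeq (GRCm38.p6), 250 bases before to 50 after the annotated start, were found for 10 of the 11 mitotic kinesins, with Kif20a unmatched, and for 10 of the 14 transport kinesins. The letters TTTGAA, or TTCAAA on the other strand, were present in 9 of the 10 mitotic windows. They were present in 1 of the 12 windows of the transport kinesins, that of Kif1a, and in 17.9% of all 32851 windows. The 9 windows found for 7 of the 8 other Kif genes held them in 1, that of Kif26b. Counting only the 250 bases before the start, 5 of 10 mitotic windows and 16.0% of all windows held them. In the stretch from 50 bases before to 50 after the start, a window chosen after the positions were seen, the counts were 7 of 10 against 4.94%. In that stretch 1 of 12 transport windows (Kif1a) and 1 of 9 windows of the other Kif genes (Kif26b) held a match. Below, 30 bases around each match are printed on the gene's strand, with the 6 matched letters in capitals and the first matched base counted from the start.
Kif11, chr19:37376351-37376380 (+), match at −19: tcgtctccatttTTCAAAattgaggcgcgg
Kif15, chr9:122951050-122951079 (+), match at −19: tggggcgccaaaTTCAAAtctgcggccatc
Kif22, chr7:127042420-127042449 (−), match at −17: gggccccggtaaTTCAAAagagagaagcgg
Kif23, chr9:61946780-61946809 (−), match at 3: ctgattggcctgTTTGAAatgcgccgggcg
Kif18b, chr11:102925104-102925133 (−), match at 4: cggaccggctagTTTGAAcgcgccgcgccg
Kif20b, chr19:34922353-34922382 (+), match at 8: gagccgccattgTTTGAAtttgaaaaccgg
Kif4, chrX:100626072-100626101 (+), match at 20: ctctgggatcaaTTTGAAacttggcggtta
Kif2c, chr4:117178858-117178887 (−), match at −103: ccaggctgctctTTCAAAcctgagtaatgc
Kif14, chr1:136467608-136467637 (+), match at −228: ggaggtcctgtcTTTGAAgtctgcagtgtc

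In the first 7 of these genes the match lay between 19 bases before and 20 bases after the start, and Kif20b held a further match at 14. Kif15 and Kif22 held a further match at −234 and −215. Of these 7 genes, 6 rose, with log2 fold changes of 1.62 to 3.72, and Kif23 was not called. Kif2c and Kif14, with matches farther out, were not called either. Their log2 fold changes of 2.27 and 2.73 lay within the range of the 6 that rose. Whether the position of a match goes with the change was not tested. A match is a string of letters and not a shown binding site.

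**Figure D3:**
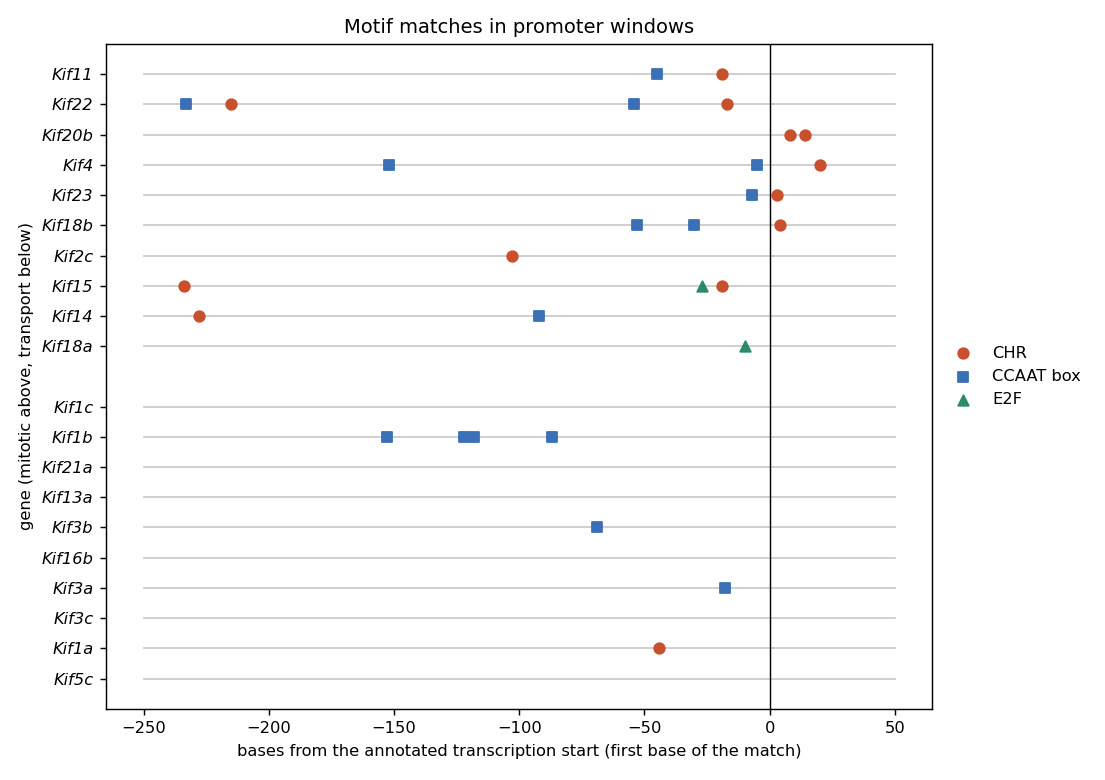
Position of the first base of each match to CHR (orange), CCAAT box (blue) and E2F (green) letters, in bases from the annotated start (horizontal axis), in the windows of 10 mitotic (upper) and 10 transport kinesins (lower), where both windows of a gene share a line. CHR matches gather around the start in 7 mitotic kinesins, and Kif1a holds the only CHR match among the transport kinesins.

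CCAAT boxes, which bind NF-Y and often sit upstream of a CHR, were also searched, as CCAAT or ATTGG. They were present in 6 of 10 mitotic windows, in 4 of 12 transport windows and in 37.4% of all windows. E2F letters (TTTCCCGC, TTTCGCGC, TTTGCCGC or TTTGGCGC, both strands) were present in 2 mitotic windows, those of Kif15 and Kif18a, in 0 transport windows and in 2.26% of all. The 250 bases before the start are printed for Kif11 and Kif22, which hold a CCAAT box and a CHR close together. They are set beside Kif18a, which was not called and held no CHR match, and Kif1c, the most abundant transport kinesin. Capitals mark every match to the 3 motifs.
Kif11, chr19:37376132-37376381 (+): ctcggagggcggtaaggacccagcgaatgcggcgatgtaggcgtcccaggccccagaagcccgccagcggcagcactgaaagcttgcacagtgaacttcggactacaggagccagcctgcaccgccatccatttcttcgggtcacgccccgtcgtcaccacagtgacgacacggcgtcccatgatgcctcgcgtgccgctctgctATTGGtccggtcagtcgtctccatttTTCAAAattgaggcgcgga
Kif22, chr7:127042421-127042670 (−): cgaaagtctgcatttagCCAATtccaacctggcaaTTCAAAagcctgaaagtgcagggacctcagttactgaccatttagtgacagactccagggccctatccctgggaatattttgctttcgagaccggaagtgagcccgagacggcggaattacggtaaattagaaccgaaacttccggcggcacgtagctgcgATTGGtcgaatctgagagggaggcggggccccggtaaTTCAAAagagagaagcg
Kif18a, chr2:109280488-109280737 (+): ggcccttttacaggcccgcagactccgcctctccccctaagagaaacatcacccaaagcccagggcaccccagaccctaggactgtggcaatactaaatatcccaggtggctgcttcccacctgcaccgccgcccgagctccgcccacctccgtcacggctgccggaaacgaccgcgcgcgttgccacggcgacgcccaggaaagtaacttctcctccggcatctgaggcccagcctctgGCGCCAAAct
Kif1c, chr11:70700298-70700547 (+): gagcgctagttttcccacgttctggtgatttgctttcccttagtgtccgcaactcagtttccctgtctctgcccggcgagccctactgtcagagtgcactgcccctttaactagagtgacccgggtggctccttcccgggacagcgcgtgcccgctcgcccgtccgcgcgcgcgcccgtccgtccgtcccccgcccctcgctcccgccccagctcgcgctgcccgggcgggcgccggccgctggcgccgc

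Transport kinesins were mostly not called. Of the 14 genes, 2 rose, Kif21b and Kif5c, where 5.92% of all genes were called in either direction and 0.813% fell. None fell in edgeR, where 1 gene, Kif1c, was lower at an unadjusted p under 0.05 (7.05% of all genes were lower and 15.4% higher at that level). DESeq2 called Kif1c lower, with 2.78% of all genes called lower, and limma-voom called 0 lower, with 0.694%. Kif5c, like the uncalled Kif1a, passed the expression filter only through the LiKM group, so its call is no separate support. The median log2 fold change was 0.13. The ranges of LiK and LiKM overlapped in 10 genes, LiKM lay above in 3 and below in Kif1c, where 17.8% and 11.8% of all genes tested lay above and below.

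Per kilobase of exon (GENCODE M21), the highest level was that of Kif1c, a fast carrier of vesicles and of messenger RNA, at 37.0 CPM per kilobase in LiK. Next came Kif21a (7.09), a regulator of microtubule growth, Kif1b (6.96), which carries mitochondria and vesicles, and Kif5b (5.84), the widely expressed conventional kinesin heavy chain. The LiK mice of Kif21a spread across the levels of Kif1b and Kif5b, so its place among them is not firm, and in LiKM the mean of Kif5b (6.36) was above that of Kif1b (5.86). Kif1c measured 267, 273 and 267 CPM in LiK against 214, 220 and 213 CPM in LiKM. The groups did not overlap and the mice within each were close, but the log2 fold change of −0.32 (SE 0.10, 95% confidence interval −0.54 to −0.09) was not called (edgeR adjusted p = 0.103). DESeq2 called it with an adjusted p of 0.00637.

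Kif5b measured 50.7, 47.5 and 41.7 CPM in LiK against 53.2, 52.4 and 46.7 CPM in LiKM, with overlapping groups and a 95% confidence interval of −0.15 to 0.39 on the log2 scale. Its neuron-enriched relative Kif5c had 1, 1 and 0 counts in LiK against 16, 10 and 17 counts in LiKM. From 2 summed counts to 43, the ratio was 21.8 with an exact binomial 95% interval of 5.68 to 186 that covers counting error only (edgeR adjusted p = 0.0226 and fitted log2 fold change 4.21, which depends on the prior count). Kif5a, the other neuron-enriched heavy chain, did not share this and measured 3.37, 3.42 and 3.08 CPM in LiK against 1.27, 2.50 and 4.48 CPM in LiKM (−0.26, SE 0.42, adjusted p = 0.751 by edgeR). The calls of Kif5c and Kif21b were both lost without LiK 1, LiK 2, LiK 3, LiKM 1 or LiKM 2, and that of Kif21b also without LiKM 3. Their adjusted p over the omissions ran from 0.0419 to 0.0891 and from 0.0632 to 0.164.

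Kif21b, a motor of neurons and lymphocytes, measured 2.79, 3.93 and 4.39 CPM in LiK against 6.16, 8.80 and 7.81 CPM in LiKM, a 2.04-fold rise (log2 fold change 1.03, SE 0.23, adjusted p = 0.0479 by edgeR). Beside it, the summed T and natural killer cell markers ran from 3.20 to 6.31 CPM in LiK and from 12.2 to 16.3 CPM in LiKM. Cd4 among them went the other way without a call, and the part of these markers in the rise was not tested. Kif1a, the axonal carrier of synaptic vesicle precursors, had 3, 1 and 6 counts in LiK against 11, 15 and 19 in LiKM and was not called (2.17, SE 0.53, edgeR adjusted p = 0.0594). DESeq2 called Kif1a higher, as did edgeR with library totals as the scaling. Among neuron markers, Nefl had 0 counts in all 6 mice, Snap25 had at most 1 count in any mouse, Tubb3 had 2, 0 and 3 counts against 9, 2 and 2, and Rbfox3 and Syt1 were not called.

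The heterotrimeric kinesin-II motors Kif3a, Kif3b and Kif3c, the first 2 of which build cilia, were not called. Kif3b measured 14.9, 17.3 and 15.6 CPM in LiK against 16.9, 20.1 and 15.5 CPM in LiKM, with overlapping groups. Its log2 fold change was 0.14 (95% confidence interval −0.19 to 0.46). Kif3a and Kif3c stood at 0.33 (−0.21 to 0.87) and 0.20 (−0.51 to 0.91). The endosome and vesicle carriers Kif13a, Kif13b and Kif16b lay at −0.15 (−0.57 to 0.26), 0.03 (−0.33 to 0.39) and −0.05 (−0.42 to 0.32). Kif1b lay at −0.25 (−0.63 to 0.14) and Kif21a at 0.14 (−0.40 to 0.68). The Kif21a groups overlapped, as it measured 35.3, 43.8 and 58.6 CPM in LiK against 40.6, 47.5 and 63.6 CPM in LiKM.

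**Figure D4:**
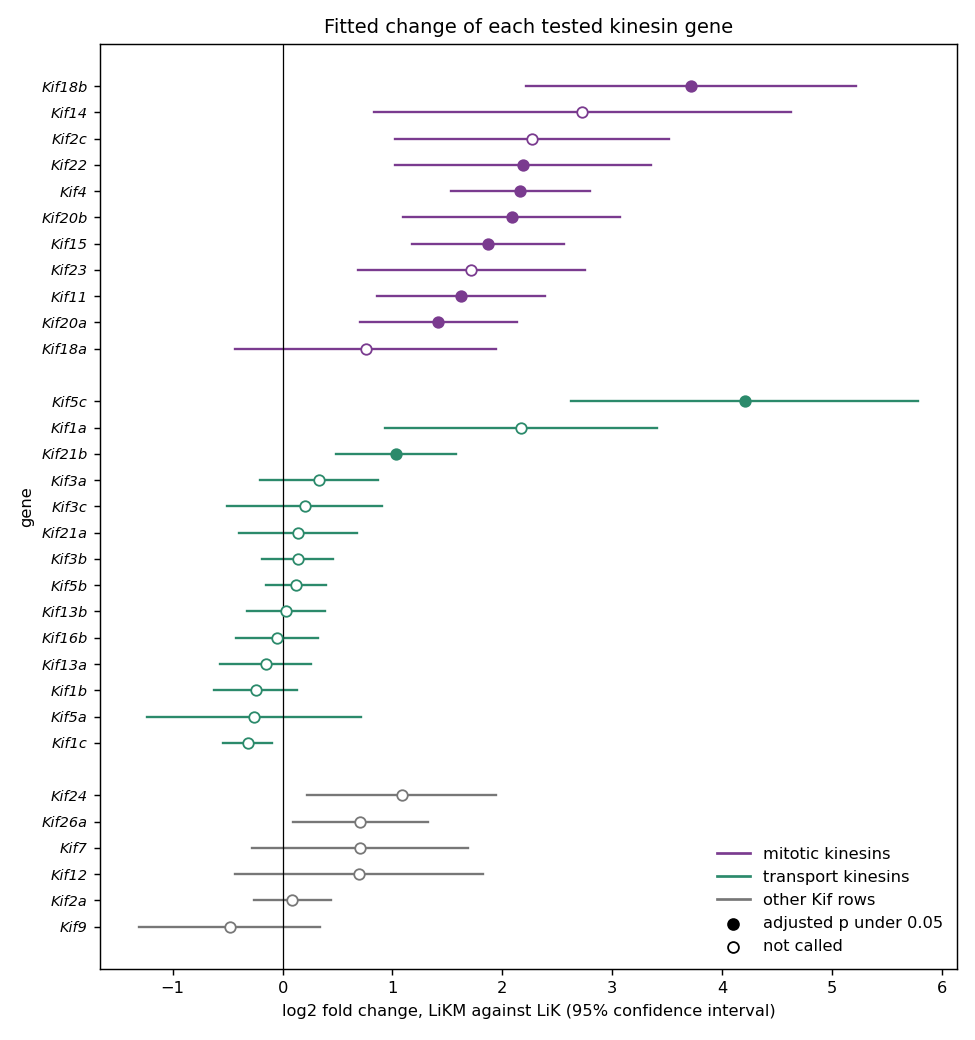
Fitted log2 fold change of LiKM against LiK (horizontal axis, bars are 95% confidence intervals) for the 31 tested kinesin genes, in mitotic (purple), transport (green) and other (grey) groups, filled where the edgeR adjusted p was under 0.05. Mitotic kinesins lie right of 0, most transport kinesins lie around 0, and Kif5c, Kif1a and Kif21b stand apart from the other transport kinesins.

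The 8 remaining Kif genes held no call in edgeR. Of the 6 that were tested 0 rose and 0 fell in edgeR, DESeq2 and limma-voom, and 2 were higher at an unadjusted p under 0.05 in edgeR. These were Kif24, a microtubule depolymerase that restrains cilium formation in cycling cells, and Kif26a, an atypical kinesin without ATPase activity. Kif24 measured 0.578, 0.856 and 1.03 CPM in LiK against 1.64, 2.40 and 1.21 CPM in LiKM (log2 fold change 1.09, SE 0.37, edgeR adjusted p = 0.138). Kif26a went from 1.14 ± 0.201 to 1.87 ± 0.238 CPM (SD, n = 3 each; 0.71, SE 0.26, adjusted p = 0.169 by edgeR). Kif2a, a close relative of Kif2c that is also active outside mitosis, lay at 7.51 ± 0.691 and 7.99 ± 0.693 CPM (SD, n = 3 each), a log2 fold change of 0.09 with a 95% confidence interval of −0.26 to 0.44. The intervals of Kif2a and Kif2c did not overlap, although the difference itself was not tested.

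Kif7, the ciliary regulator of Hedgehog signalling, Kif12, an epithelial kinesin whose human counterpart is linked to cholestasis, and Kif9, a motor of motile cilia, had overlapping groups. Their log2 fold changes were 0.70 (SE 0.42), 0.70 (SE 0.48) and −0.48 (SE 0.35). Kif19a and Kif26b were too scarce for the filter, with 6, 8 and 4 Kif19a counts in LiK against 23, 20 and 6 in LiKM, and 13, 6 and 11 Kif26b counts against 5, 3 and 7. In a fit without the filter, edgeR called neither (adjusted p = 0.267 and 0.441). In GENCODE M21, exons of Kif2a, Kif3c and Kif7 share 19.22%, 35.34% and 19.14% of their length with a gene on the opposite strand (Dimt1, 1110002L01Rik and 9330171B17Rik), so their counts carry the same uncertainty as those of Kif20a and Kif4.

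Summed by class, the mitotic kinesins stood at 9.87, 6.14 and 10.1 CPM in LiK and at 29.98, 30.3 and 39.5 CPM in LiKM. The means were 8.72 ± 2.23 and 33.2 ± 5.41 CPM (SD, n = 3 each), 3.81 times as high in LiKM. The transport kinesins together stood at 564, 592 and 596 CPM in LiK and at 494, 532 and 550 CPM in LiKM. Their mean was 0.900 times the LiK mean, and Kif1c alone made up 46.1% ± 1.26 of their counts in LiK against 41.1% ± 2.27 in LiKM (SD, n = 3 each). Mitotic kinesins thus took 1.68%, 1.01% and 1.64% of all kinesin counts in LiK and 5.55%, 5.23% and 6.52% in LiKM. The groups did not overlap in any of these sums, and a two-sided exact permutation test over the mice gave p = 0.1 for the share, the smallest value that 3 against 3 allows. The median log2 fold change of the mitotic kinesins lay 1.95 above that of the transport kinesins, and 1.68 to 2.06 above it when 1 mouse was left out.

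**Figure D5:**
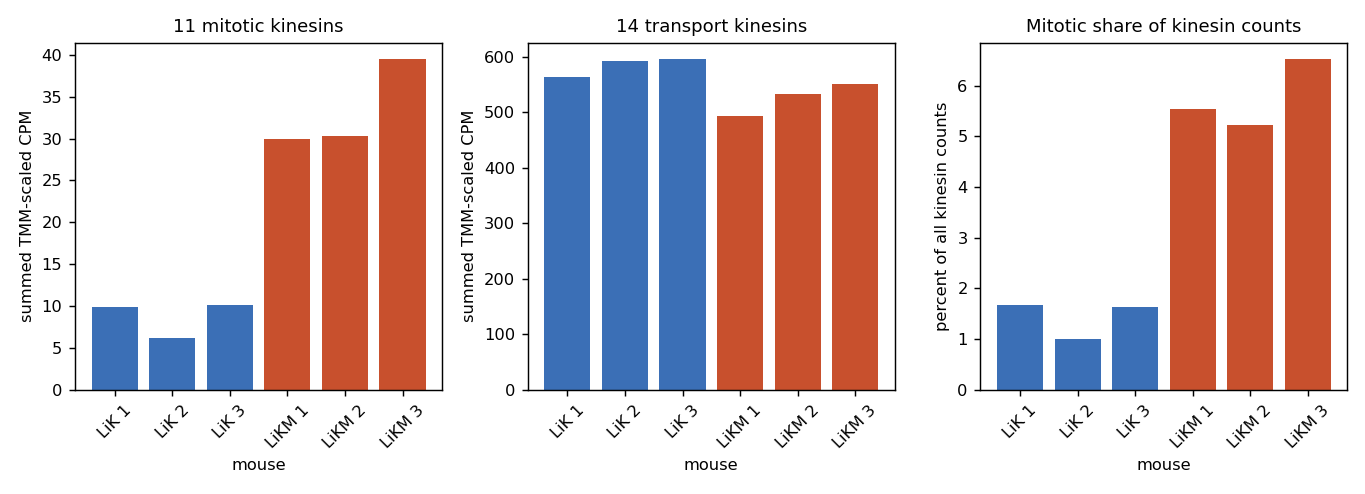
Summed TMM-scaled CPM of the 11 mitotic kinesins (left) and of the 14 transport kinesins (middle), and the percent of all kinesin counts on mitotic kinesins (right), a bar per mouse with LiK in blue and LiKM in orange. The left and right panels step up from LiK to LiKM, while the middle panel is slightly lower in LiKM.

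Of 5 tested kinesins outside the symbol rule, 1 rose in edgeR, Kifc1, where 5.11% of all genes rose. Kifc1 was not called without LiK 1, LiK 2 or LiKM 2. It reached the expression filter in enough mice only through the LiKM group, so its call is no separate support. Kifc1, the minus-end motor that bundles spindle poles, measured 0.626, 0.252 and 0.821 CPM in LiK against 5.26, 7.71 and 4.19 CPM in LiKM, a 9.86-fold rise (log2 fold change 3.30, SE 0.43, edgeR adjusted p = 0.0148). Kifc5b, a near copy of Kifc1, can share reads with it, so the value of each is uncertain (Kifc5b 1.93, SE 0.54, adjusted p = 0.0848 by edgeR). Cenpe, the kinetochore motor that gathers chromosomes at the equator, was not called (1.79, SE 0.43, edgeR adjusted p = 0.0583), and like most mitotic kinesins it was highest in LiKM 3. Kifc3, a motor of adherens junctions, had 45.2 ± 14.7 CPM in LiKM against 23.4 ± 3.63 CPM in LiK, and Kifc2 had 7.01 ± 0.872 against 10.8 ± 1.34 CPM (SD, n = 3 each). Neither was called by edgeR (adjusted p = 0.0786 and 0.0731). DESeq2 called all 5 of these motors, 4 higher and 1 lower, where it called 8.97% of all genes higher and 2.78% lower.

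Of 21 partners of mitotic kinesins 14 rose, 0 fell and 7 were not called in edgeR, with a median log2 fold change of 1.79, where 5.11% of all genes rose. Without LiK 1, LiK 2 and LiK 3 the count was 2, 1 and 7, and without LiKM 1, LiKM 2 and LiKM 3 it was 9, 1 and 11. At an unadjusted p under 0.05, 19 were higher and 0 lower, and DESeq2 and limma-voom called 18 and 12 higher and 0 lower. Kifc1 and Cenpe are among these 21. Some of the 14 called, Psrc1 and Kifc1 among them, reached the expression filter in enough mice only through the LiKM group. The count of calls is therefore no separate support. Tpx2, which targets Aurora A to the spindle and also binds Kif11 and Kif15, measured 1.06, 0.805 and 1.11 CPM in LiK against 4.13, 4.401 and 6.56 CPM in LiKM (2.33, SE 0.28). Incenp, the scaffold of the chromosomal passenger complex, rose by 1.48 (SE 0.17) on the log2 scale. Psrc1, which encodes a microtubule protein, had 2, 0 and 2 counts in LiK against 389, 420 and 163 in LiKM. Unlike most mitotic kinesins, Psrc1 was lowest among the LiKM mice in LiKM 3 (7.86 CPM, against 18.3 and 19.1 CPM in LiKM 1 and LiKM 2). Racgap1, which forms centralspindlin with Kif23, and Prc1, the midzone bundler that recruits Kif4, rose by 2.31 (SE 0.31) and 2.18 (SE 0.32), and both were highest in LiKM 3. Cit, the citron kinase gene that partners Kif14, had a negative log2 fold change of −0.65 (SE 0.35) and was not called (edgeR adjusted p = 0.326). Racgap1, Prc1, Cit, Mki67 and Kifc5b, and Sybu and Arl8a below, were picked for naming after their values were seen.

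The accessory genes of transport kinesins held no call. Of 17 tested light chains, adaptors and regulators, 0 rose and 0 fell in edgeR and in limma-voom, with a median log2 fold change of −0.07. DESeq2 called 2 higher, where it called 8.97% of all genes higher. At an unadjusted p under 0.05 in edgeR 2 were higher, Sybu and Arl8a, where 15.4% of all genes were. Trak1, which ties mitochondria to Kif5 motors, stood at 88.7 ± 10.6 CPM in LiK against 67.9 ± 14.04 CPM in LiKM (SD, n = 3 each), with groups that did not overlap and an adjusted p of 0.251 in edgeR. Klc4, a kinesin light chain, stood at 81.1 ± 13.3 and 67.2 ± 10.9 CPM (SD, n = 3 each; adjusted p = 0.392 by edgeR). Arl8a, a small GTPase that couples lysosomes to kinesin-1, and Sybu, the adaptor syntabulin, had adjusted p of 0.0511 and 0.0722 in edgeR.

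Markers of several other cell types were also higher in LiKM than in LiK, and their part in these results was not tested. Of 6 tested T and natural killer cell markers 5 rose, where 5.11% of all genes did, and the list summed to 3.20 to 6.31 CPM in LiK and 12.2 to 16.3 CPM in LiKM. Of the 5, Cd3e, Cd8a, Lck and Nkg7 reached the expression filter in enough mice only through the LiKM group. Their calls are therefore no separate support. Of 6 macrophage markers 4 rose (172 to 206 CPM and 245 to 296 CPM), and of 6 stellate cell markers 2 rose (85.1 to 165 CPM and 248 to 356 CPM). These calls also changed with the mouse left out. Without LiK 1, LiK 2 and LiKM 2, edgeR called 1, 0 and 1 of the T and natural killer cell markers and 0 of the macrophage and stellate cell markers, and without LiK 3 and LiKM 1 it called 1 and 2 macrophage markers. Stellate cell markers also had 0 calls without LiKM 1, while 4 to 6 of them were higher at an unadjusted p under 0.05 in each omission. Cholangiocyte markers held 0 calls in edgeR among 7 tested. At an unadjusted p under 0.05, 4 were higher, and DESeq2 called 2 higher (15.4% and 8.97% of all genes). In 4 of the 7 the LiKM mice lay above the LiK mice without overlap, where 17.8% of all genes did. The groups overlapped in the other 3. The sums of the list overlapped (92.5 to 261 CPM and 117 to 245 CPM). Spp1, itself overlapping, was their largest part (119 ± 92.1 and 147 ± 54.7 CPM, SD, n = 3 each). B cell, endothelial, red cell precursor and neuron markers held 0 calls in edgeR, DESeq2 and limma-voom, with 2 endothelial markers higher and 1 lower at an unadjusted p under 0.05 and 0 of the others. Hepatocyte markers summed to 105410 to 130363 CPM in LiK and 112211 to 127618 CPM in LiKM, with 0 calls among 6 in edgeR and limma-voom, 2 lower at an unadjusted p under 0.05 in edgeR and 1 called lower by DESeq2.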

How the data were processed

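Liver RNA of 3 LiK and 3 LiKM mice was sequenced with a stranded library kit that selects messenger RNA, per the labels' protocols. The authors deposited raw read counts per gene symbol, made with featureCounts after FastQC 0.11.7, per the submitters' processing notes. For the aligner, genome build, annotation and strand setting nothing is given in the sources used here. Columns were matched to mice by the animal code in each title, each a separate animal. An allele that both genotypes share is not reported here.

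Deposited counts entered the fits unchanged. Genes passing edgeR's default filter (about 0.481 CPM, or 10 counts, in 3 libraries) were scaled by TMM (factors 0.903 to 1.11) and tested by quasi-likelihood in edgeR 4.0.16 in R 4.3.3, with genotype as the only term. Standard errors come from the coefficient and its F statistic. DESeq2 1.42.0 and limma 3.58.1 (voom) were alternatives, with other scalings, filters, a replicate block and the omission of each mouse. Scripts were tested on simulated counts. Within a genotype, libraries differed by more than sampling noise (chi-square per gene 36.1 to 125).

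The kinesin classes, the pathway and marker lists and the motifs were chosen with earlier results of these data known. All kinesins may be named. From each pathway list, the 4 genes with the smallest p were named, or the 2 most abundant where none was called. Marker lists are given as counts and sums. The neuron markers, the T and natural killer cell markers and Spp1 were named after their values were seen. Of 143 list entries, 138 matched a row, some by older symbols in RefSeq. Exon lengths and overlaps come from GENCODE M21, whose match to the authors' annotation is unknown.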

Additional observations from a re-analysis of the deposited data

How the results depend on the processing

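Under other scalings, tools and filters and under the replicate block, the 7 mitotic kinesins called became 6 to 10, and each of the mitotic kinesins tested kept a positive log2 fold change. Leaving out a mouse gave 0 to 3. Transport kinesins called numbered 4 with the DESeq2 Wald test and 3 with library totals, instead of 2. They numbered 1 with limma-voom, 1 with a filter of 1 CPM in 3 libraries and 0 to 1 without a mouse. All genes called numbered 1591 with DESeq2 and 19 to 626 without a mouse, instead of 802. Library totals moved the median of all genes to 0.16 and turned Kif13a and Kif16b, both uncalled, to 0.014 and 0.11, still below that median. Over the omissions, values around 0 also changed sign for Kif5a (−0.82 to 0.055), Kif2a (−0.0047 to 0.14), Kif13b (−0.10 to 0.13), Kif21a (−0.079 to 0.35) and Kif16b (−0.18 to 0.036), none of them called. The causes were not tested. Depth limits the scarcest genes: 3 counts are worth 0.123 to 0.151 CPM, near the mean LiK level of Kif14 and Kif1a and above that of Kif5c. Mice with the same number in both genotypes had correlated deviations of 0.267, 0 and 0.127, so the numbers were not taken as pairs, and not every mouse correlated best with its own number. With the replicate block, 7 mitotic kinesins were called, with Kif2c in place of Kif20a, and 835 genes in all.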

Other observations

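Dynein, the motor that carries cargo the other way along microtubules, and its cofactor dynactin held no call. Of 23 tested subunits and regulators 0 rose and 0 fell in edgeR, DESeq2 and limma-voom, while 2 were higher and 0 lower at an unadjusted p under 0.05 in edgeR. The median log2 fold change was 0.013, and the list summed to 1020 to 1037 CPM in LiK and 1001 to 1037 CPM in LiKM. Dync1h1, the heavy chain of cytoplasmic dynein, stood at 158 ± 15.3 and 158 ± 3.84 CPM, and the light chain gene Dynll2 at 159 ± 3.30 and 139 ± 3.30 CPM (SD, n = 3 each; edgeR adjusted p = 0.989 and 0.275).

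Among 16 regulators of G2 and M phase genes, 1 rose in edgeR, Rbl1, which encodes the DREAM subunit p107. It measured 2.41, 1.66 and 2.54 CPM in LiK and 7.001, 10.6 and 8.34 CPM in LiKM (log2 fold change 1.96, SE 0.25, edgeR adjusted p = 0.0135). This count of 1 in 16 is near the 5.11% of all genes that rose, and 0 regulators were called without LiK 1, LiK 2 or LiKM 2. Foxm1, the activator of G2 and M phase genes, measured 1.69, 0.403 and 1.76 CPM in LiK and 4.65, 4.08 and 5.79 CPM in LiKM and was not called (1.90, SE 0.47, adjusted p = 0.0615 by edgeR). As with most mitotic kinesins, LiK 2 was its lowest LiK mouse and LiKM 3 its highest LiKM mouse. E2f1, an activator of S phase genes, had 11.4, 11.8 and 4.29 CPM in LiKM, with LiKM 3 lowest (edgeR adjusted p = 0.055). Cdkn1a, which encodes the inhibitor p21 that lets DREAM form, had 159, 146 and 115 CPM in LiKM against 34.4, 14.6 and 2.95 CPM in LiK (adjusted p = 0.0591 by edgeR). DESeq2 called 4 of the 16 regulators higher and limma-voom 2, where they called 8.97% and 4.08% of all genes higher. By either, 0 regulators were called lower.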
